A study of Homo sapiens with 47 samples.

Results

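The epithelial fraction of human pre-neural cultures at passage 8 (P8 EPI) was compared with the same fraction at passage 5 (P5 EPI). Its members were chosen by label, as the 3 libraries labelled P8_EPI and the 3 labelled P5_EPI, which are 6 of the 47 libraries of the series. Each P8 library was paired with the P5 library of the same replicate number, r1, r2 or r3, which stands for 1 of 3 differentiations. H9 (WA09) cells, an established human embryonic stem cell line, were first treated for 36 h with the WNT pathway activator CHIR-99021, recombinant FGF2, AGN193109, an inverse agonist of retinoic acid receptors, and the ROCK inhibitor Y-27632, in N2B27 medium without vitamin A. The cells were then passaged in the same mixture, so both groups carried every agent and differed in the number of passages. At P5 and P8 the cultures were split with TrypLE by selective detachment into a fraction enriched for epithelial, pre-neural cells and a fraction enriched for mesenchymal, neural crest cells (MES). This is an enrichment and not a sort, and all libraries come from 1 cell line, which limits both groups as a model. The comparison asks how the pre-neural epithelium differed after further passages.

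PolyA RNA was measured by bulk RNA-seq, and gene levels are given as normalized counts unless a sentence says TPM. Total expected counts were 61252964, 54327233 and 49545981 in P5 EPI of r1, r2 and r3, and 59149955, 44680263 and 53382649 in P8 EPI. Mitochondrial transcripts held 3.44%, 2.20% and 2.20% of the counts at P5 and 4.19%, 3.78% and 2.38% at P8. Differentiation r1 stood apart. The root mean square log2 distance between its P5 and P8 libraries was 0.532 over 13262 genes, against 0.828 in r2 and 0.877 in r3, and a change of at least 2-fold was seen in 590 of 12907 genes in r1 (4.57%), 1399 in r2 (10.8%) and 1418 in r3 (11%). The P8 library of r1 lay 0.542 and 0.711 from the P5 libraries of r2 and r3. From the P8 libraries of r2 and r3 it lay 0.739 and 0.902. Values are therefore given for each differentiation.

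As background, the caudal end of the vertebrate embryo holds progenitors that supply the spinal cord and the trunk mesoderm. WNT and FGF signals keep these cells in a progenitor state, and retinoic acid from the neighbouring somites moves them towards neural differentiation. *HOX* genes lie in clusters, are switched on in the order of their place in the cluster, and set position along the body axis, with the last paralogues marking the sacral and tail end.

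The label was checked against markers. The neural factor *SOX2* averaged 12251 normalized counts in P5 EPI (SD 2351, n = 3) and 3801 in P5 MES (SD 1706, n = 3), and the caudal factor *CDX2* averaged 14335 (SD 3534) and 4885 (SD 2416). The pre-neural factor *NKX1-2* averaged 2192 in P5 EPI (SD 886) and 751.5 in P5 MES (SD 596). At P5 each of these 3 markers was higher in EPI than in MES of the same differentiation, and the groups did not overlap for *SOX2* and *CDX2*. At P8 the means lay closer for *SOX2* and *CDX2*, with *SOX2* at 10848 in EPI (SD 5752) and 6093 in MES (SD 4743), *CDX2* at 7348 (SD 5373) and 4772 (SD 4728), and *NKX1-2* at 450.7 (SD 373) and 253.5 (SD 234). The groups overlapped at P8, but within each differentiation all 3 markers were again higher in EPI than in MES. The receptor *FGFR2* was also higher in EPI in every pair at both passages. *NEUROG2*, a proneural factor, was higher in EPI in every pair except r3 at P8, with 161 in EPI and 218 in MES.

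Markers of the other fraction were also present in the epithelial one. *COL3A1*, a fibrillar collagen, averaged 10627 in P5 EPI (SD 3282) and 29788 in P5 MES (SD 7407), and at P8 22073 (SD 14996) and 55851 (SD 16592). *SOX10*, a factor of migrating neural crest, averaged 72.0 in P5 EPI (SD 59.1) and 676 in P5 MES (SD 652). At P8 it averaged 54.7 in EPI (SD 30.8) and 295 in MES (SD 181). The receptor *PDGFRA* averaged 8226.5 in P5 EPI (SD 1234) and 7128 in P5 MES (SD 1566), with EPI above MES in every pair, and 5293 (SD 2710) and 6661 (SD 2869) at P8, with EPI below MES in every pair. *SOX9* averaged 1781 (SD 990) and 4013 (SD 2200) at P5, with EPI below MES in every pair, and 7836 (SD 4609) and 6680 (SD 4916) at P8, with EPI above MES in r1 and r2. Of the epithelial markers, *CDH1*, which encodes E-cadherin, averaged 7.33 normalized counts at P5 (SD 3.95) and 39.1 at P8 (SD 27.9), and *EPCAM* 116 (SD 31.3) and 189.8 (SD 90.4). In MES *CDH1* averaged 2.87 (SD 1.73) and 36.1 (SD 15.2), above EPI at P8 in r1 and r3, and *EPCAM* 45.7 (SD 29.7) and 115 (SD 53.9), below EPI in every pair. The tight junction gene *TJP1* averaged 9000 in P5 MES (SD 235) and 9251 in P8 MES (SD 138), higher than in EPI of the same differentiation at both passages. *CDH2*, which encodes N-cadherin, stood at 25935, 29575 and 22718 in P5 EPI of r1, r2 and r3 and at 24966, 25523 and 19684 in P8 EPI. In bulk samples such as these, fewer cells of a type and less RNA per cell cannot be told apart.

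At P8 the epithelial fraction had more RNA of the chemokine *CXCL14*, with a log2 fold change of 7.89 (SE 0.61, n = 3 a group, adjusted p = 0.0043), and of the secreted ligand *BMP7*, with 1.73 (SE 0.10, adjusted p = 5.2e-04), in each of the 3 differentiations. It had less of the receptor subunit *GABRA4*, which fell by 4.02 on the log2 scale (SE 0.43, adjusted p = 0.0071), and of the ligand *FGF19*, which fell by 3.76 (SE 0.40, adjusted p = 0.0071). The SE of a log2 fold change comes from a fit of 12 libraries of both fractions and is not the spread over the 3 differentiations. The 6 *HOX* genes of paralogues 12 and 13, which mark the tail end of the axis, were all higher at P8, without being called. Of 18886 genes tested, 49 (0.259%) were called, which means a false discovery rate (FDR) under 1%, a change of 2-fold or more and an average over the 6 libraries of 100 normalized counts or more. Higher at P8 were 43 genes (0.228%) and lower were 6 (0.0318%). Each of the 49 had the same direction in all 3 differentiations. With an FDR under 5% and the other limits kept, here called the 5% rule, 493 genes passed (2.61%), 371 higher (1.96%) and 122 lower (0.646%). At an unadjusted p under 0.05 there were 5917 genes (31.3%). Counts at this limit in the gene lists below are to be read beside that share. The P5 and P8 libraries did not overlap for 2541 genes that were higher at P8 (13.5%) and 2385 that were lower (12.6%). In a random order of 3 and 3 libraries the share with no overlap is 10%, which is 5% in either direction. The median log2 fold change over all genes tested was 0.01.

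The 49 calls come from a fit of the 12 libraries of both fractions, and other fits gave other counts. With the 6 EPI libraries alone, edgeR called 0 genes, with 4285 at an unadjusted p under 0.05 and a smallest adjusted p of 0.019. With no pairing by differentiation edgeR also called 0, with 4285 at an unadjusted p under 0.05. DESeq2 on the 12 libraries with the pairing called 606 (3.21%), 446 higher (2.36%) and 160 lower (0.847%), which include all 49. Counts called by DESeq2 in the gene lists below are to be read beside the share of 3.21% of all genes. Without r1 edgeR called 364 genes (1.93%), 259 higher (1.38%) and 105 lower (0.558%), and 38 of the 49 are among them. Without r2 it called 0, with 2200 at an unadjusted p under 0.05, and without r3 it called 0, with 3491.

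Both fractions of a differentiation were split from the same culture and moved together. For each gene, the log2 ratio of P8 to P5 in a differentiation was compared with its mean over the 3 differentiations. Across 12907 genes, which are not independent replicates, these deviations in EPI and MES correlated at 0.757, 0.714 and 0.731 for the fractions of r1, r2 and r3, while fractions of different differentiations gave between -0.554 and -0.189. Deviations sum to 0 over the 3 differentiations, so the negative values follow in part from the positive ones. The 12 libraries therefore hold fewer independent units than their number, and SE and p-values from the 12-library fit may be too small.

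The 10 largest rises among called genes were of genes with varied roles. *CXCL14* (ENSG00000145824), a secreted chemokine of epithelia, stood at 4.16, 34.1 and 10.5 normalized counts in P5 EPI of r1, r2 and r3 and at 852, 7219 and 4490 in P8 EPI. All P8 libraries were far above all P5 libraries, and the log2 fold change was 7.89 (SE 0.61, adjusted p = 0.0043). *ANXA1*, a phospholipid-binding annexin, went from 38.8, 133 and 17.5 to 484, 6118 and 1123. *EMP1* (ENSG00000134531), an epithelial membrane protein, went from 58.9, 233 and 169 to 538, 9888 and 6445. For both genes the groups did not overlap and r1 was the lowest P8 library, and the log2 fold changes were 5.20 for *ANXA1* (SE 0.62, adjusted p = 0.0085) and 4.86 for *EMP1* (SE 0.61, adjusted p = 0.0093).

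*CREB5*, a bZIP transcription factor, stood at 54.1, 45.2 and 27.2 at P5 and at 342, 1528 and 1185 at P8, a log2 fold change of 4.36 (SE 0.53, adjusted p = 0.0086). *CAVIN1*, a coat protein of caveolae, stood at 39.5, 142 and 48.3 and then at 397, 3206 and 746, a log2 fold change of 4.02 (SE 0.47, adjusted p = 0.0085). Neither gene overlapped between the groups. *TYRP1*, an enzyme of melanin synthesis, stood at 3.47, 45.2 and 13.2 at P5 and at 26.0, 709 and 542 at P8, and the peptidase inhibitor *PI15* at 8.32, 49.1 and 169 and then at 62.1, 946 and 3030. Both rose within each differentiation, by a log2 fold change of 4.21 for *TYRP1* (adjusted p = 0.0093) and 3.88 for *PI15* (adjusted p = 0.0085), but the P8 library of r1 lay below the highest P5 library. *DHRS3*, a retinal reductase, *SYT17*, a synaptotagmin family member, and *COL9A3*, a chain of type IX collagen, completed the 10 largest rises with log2 fold changes of 3.78, 3.36 and 3.08 and no overlap between the groups.

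**Figure D1:**
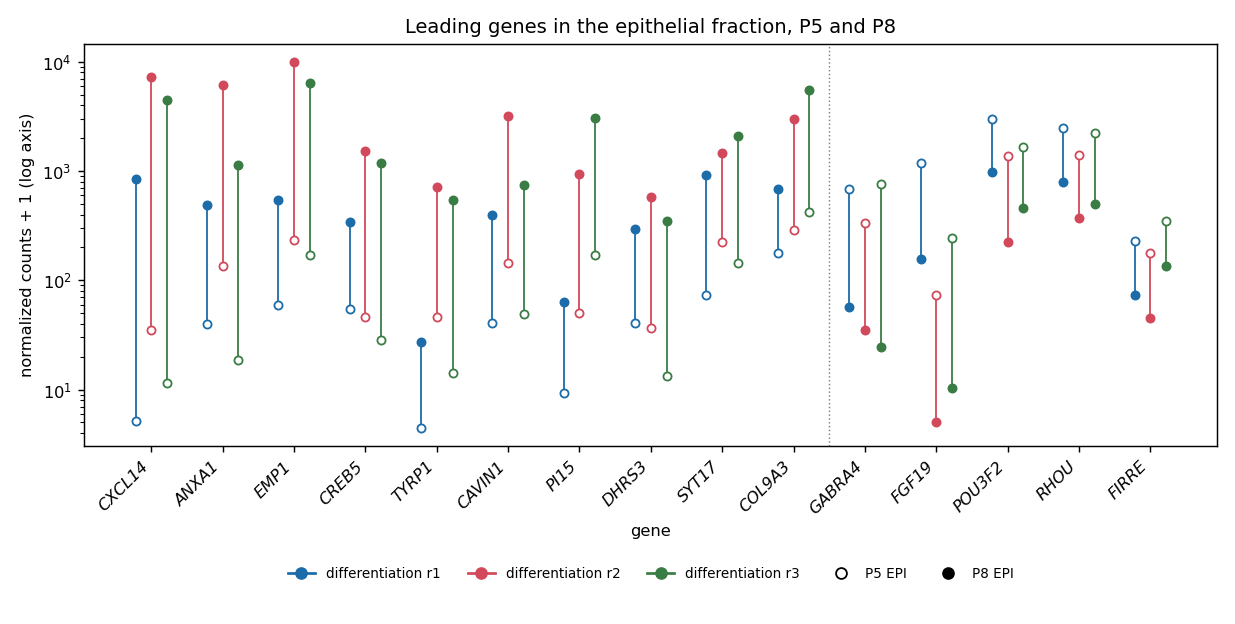
Normalized counts plus 1 on a log axis for the 10 genes with the largest rises and the 5 named genes that fell, with open points for P5 EPI, filled points for P8 EPI and a line for each differentiation. Lines to the left of the dotted line go up and lines to the right go down in all 3 differentiations, and *CXCL14* shows the longest.

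The promoters of the genes called higher were searched for a pair of motifs chosen after the values were seen. Promoters of 300 bases, from 250 before to 50 after the start of the gene, were taken from RefSeq on GRCh38.p14 and were found for 30 of the 43 genes called higher. RefSeq lists 1 start for a gene here, and for 20 of the 30 it lay within 1000 bases of the outermost start in GENCODE 29. The AP-1 motif TGANTCA, where N was allowed to be any base, reads the same on both strands. It was in 9 of the 30 (30%) and in 2120 of all 27305 promoters (7.76%), whether or not their genes were expressed here. Of the 20 with the near start 6 held it, and of 14650 such promoters over all genes 945 did (6.45%). The TEAD motif GGAATG, or CATTCC on the other strand, was in 2 of the 30 (6.67%) and in 14% of all promoters. Of the 6 genes called lower, 4 had a promoter in the table and 0 of the 4 held either motif. A match is a description of letters and no test was made. The promoters of *CXCL14* (minus strand, chr5:135578942-135579241) and *EMP1* (plus strand, chr12:13196476-13196775) are shown because these are the leading genes that hold the AP-1 motif, with 1 and 2 matches, and capitals mark those matches.
CXCL14: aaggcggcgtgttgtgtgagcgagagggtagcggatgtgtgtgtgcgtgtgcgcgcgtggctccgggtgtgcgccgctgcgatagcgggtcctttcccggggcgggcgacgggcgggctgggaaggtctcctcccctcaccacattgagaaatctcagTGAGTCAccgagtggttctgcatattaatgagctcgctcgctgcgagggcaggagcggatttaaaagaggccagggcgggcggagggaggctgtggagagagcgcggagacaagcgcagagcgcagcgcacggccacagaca
EMP1: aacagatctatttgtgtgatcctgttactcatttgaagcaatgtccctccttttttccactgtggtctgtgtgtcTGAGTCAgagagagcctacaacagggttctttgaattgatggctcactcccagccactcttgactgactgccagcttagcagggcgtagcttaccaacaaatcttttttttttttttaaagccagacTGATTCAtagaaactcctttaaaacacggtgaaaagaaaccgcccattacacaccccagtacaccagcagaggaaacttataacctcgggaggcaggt
*JUN*, which encodes an AP-1 subunit, stood at 397, 415 and 225 normalized counts at P5 and at 808, 2182 and 1676 at P8 (log2 fold change 2.06, adjusted p = 0.019), so it passed the 5% rule but was not called. A part of AP-1 in the rises of the called genes was not tested.

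Of the 6 genes called lower, 5 are named here and the other has a clone name. *GABRA4*, a subunit of the GABA-A receptor, stood at 680, 331 and 761 normalized counts at P5 and at 56.3, 33.9 and 23.6 at P8, and it fell by 4.02 on the log2 scale (SE 0.43, adjusted p = 0.0071). *FGF19*, a secreted FGF ligand, stood at 1196, 72.9 and 240 and then at 155, 4.11 and 9.28, and it fell by 3.76 (SE 0.40, adjusted p = 0.0071). *FGF19* was lower at P8 in every differentiation, while r1 had more of it at P8 than r2 at P5, so its groups overlap. *POU3F2*, a POU factor of neural progenitors, stood at 2973, 1362 and 1647 at P5 and at 986, 225 and 454 at P8, and fell by 2.02 (SE 0.22, adjusted p = 0.0071). *RHOU*, a small GTPase, fell by 1.91, and *FIRRE*, a long noncoding RNA of the X chromosome, fell by 1.68, and neither overlapped between the groups. Without r1, *GABRA4* and *FIRRE* had adjusted p = 0.010 and adjusted p = 0.017 and were no longer called.

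The weight of *HOX* expression lay nearer the end of the clusters at P8. The *HOX* index, the mean paralogue number of 39 *HOX* genes weighted by normalized counts, was 6.85, 7.63 and 7.33 in P5 EPI of r1, r2 and r3 and 7.60, 8.51 and 8.95 in P8 EPI. Every differentiation had the higher index at P8, by 0.752, 0.871 and 1.626, a mean difference of 1.083 (SD 0.474, n = 3), although r1 at P8 stood just under r2 at P5. Weighting by TPM gave a difference of 0.764, and weighting by log2 normalized counts 0.380. Paralogues 12 and 13 held 0.24%, 6.74% and 1.5% of all *HOX* counts at P5 and 9.16%, 29.38% and 29.51% at P8. Their 6 genes were all higher at P8, with a median log2 fold change of 3.79, while 6 of the 33 genes of paralogues 1 to 11 were higher, with a median of -0.43.

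edgeR called 0 of the 12 genes of paralogues 10 to 13, with 6 at an unadjusted p under 0.05 and 4 called by DESeq2, and the 4 that passed the 5% rule were the paralogue 13 genes. *HOXB13* stood at 16.6, 456 and 29.8 normalized counts at P5 and at 516, 3948 and 3242 at P8 (log2 fold change 4.79, SE 0.81, adjusted p = 0.019). *HOXC13* stood at 61.7, 1456 and 237 and then at 2174, 5786 and 5789 (3.86, SE 0.71, adjusted p = 0.022). *HOXD13* stood at 158, 1465 and 352 and then at 2784, 4823 and 4856 (3.28, SE 0.61, adjusted p = 0.022). These 3 did not overlap between P5 and P8, and in each of them r2 was the highest P5 library. *HOXA13* stood at 61.0, 562 and 286 and then at 515, 5526 and 6707 (3.71, SE 0.51, adjusted p = 0.012), with r1 at P8 just under r2 at P5. *HOXC12* was the most uneven, with 18.0, 5866 and 628 at P5 and 7781, 14201 and 11150 at P8 (4.17, SE 1.48, adjusted p = 0.099). *HOXD12* stood at 49.2, 1482 and 404 and then at 2298, 1675 and 1807 (2.35, SE 1.08, adjusted p = 0.18), so r2 was near its P8 level at P5 already.

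Among anterior and middle *HOX* genes, edgeR called 0 in paralogues 1 to 4 and 0 in paralogues 5 to 9, with 7 and 8 at an unadjusted p under 0.05 and 1 and 3 called by DESeq2. Of the 12 genes of paralogues 1 to 4, 11 were lower, with a median log2 fold change of -0.49, and 1 passed the 5% rule, *HOXB1*, which stood at 435, 79.2 and 154 at P5 and at 145, 14.4 and 23.6 at P8 (-2.29, adjusted p = 0.019). Of the 15 genes of paralogues 5 to 9, 13 were lower, with a median of -0.54, and *HOXC5* stood at 449, 311 and 464 and then at 238, 28.7 and 54.0 (-2.43, adjusted p = 0.024). *HOXB5* went the other way, from 536, 448 and 468 to 1110, 990 and 941 (1.05, adjusted p = 0.019), and its groups did not overlap. Among thoracic and lumbar genes, *HOXC6* stood at 16482, 18410 and 15554 at P5 and at 13915, 4992 and 5182 at P8 (-1.30, adjusted p = 0.098), *HOXC10* at 15906, 18810 and 16182 and at 14156, 6831 and 6735 (-1.02, adjusted p = 0.13). In both genes r1 at P8 was close to the P5 level while r2 and r3 were at less. *HOXB9*, the most abundant gene of paralogues 5 to 9 at a mean of 342.5 TPM, stood at 28222, 25037 and 19667 and then at 24034, 14568 and 11278 (-0.63, adjusted p = 0.071).

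**Figure D2:**
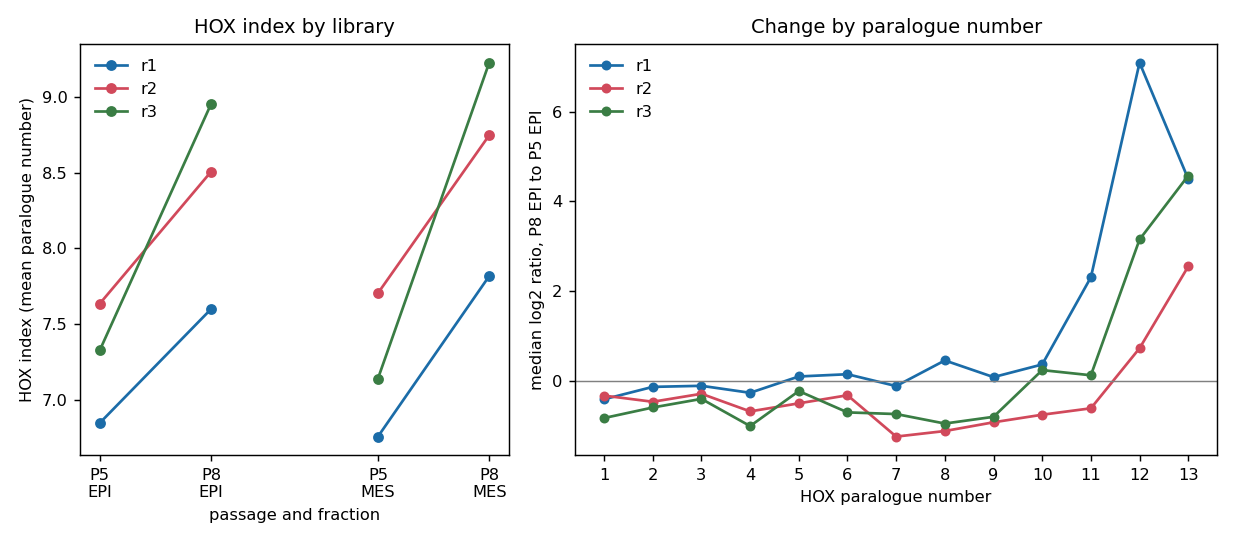
Left, the *HOX* index of each EPI and MES library at P5 and P8, with a line for each differentiation. Right, the median log2 ratio of P8 EPI to P5 EPI for each *HOX* paralogue number, where r2 and r3 lie below 0 from paralogue 1 to 9 and all 3 lie above 0 at paralogues 12 and 13.

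Genes of the caudal progenitor state were mostly lower. Of 19 caudal progenitor genes edgeR called 0, with 12 at an unadjusted p under 0.05 and 3 called by DESeq2. Of the 19, 13 were lower, 7 of them with no overlap between groups (36.8%, beside 12.6% of all genes), while 2 were higher with no overlap (10.5%, beside 13.5%). The median log2 fold change was -1.30 against 0.01 over all genes tested. *NKX1-2* stood at 1399, 3149 and 2028 at P5 and at 869, 330 and 153 at P8 (-2.67, SE 0.75, adjusted p = 0.058). *EVX1*, a homeobox factor of the primitive streak, stood at 301, 542 and 842 and then at 16.6, 117 and 192 (-2.62, SE 0.55, adjusted p = 0.031). Both had every P8 library under every P5 library. *CDX2* stood at 18239, 13411 and 11354 and then at 13440, 5318 and 3286 (-1.30, SE 0.49, adjusted p = 0.12), with r1 at P8 inside the range of P5. *SP8*, a zinc finger factor downstream of WNT signals, stood at 1415, 616 and 542 and then at 1197, 118 and 26.2 (-2.31, adjusted p = 0.10). *TBXT*, the mesoderm factor Brachyury, was uneven, at 228, 210 and 249 and then at 115, 1056 and 325 (0.81, adjusted p = 0.60). *WNT5A*, a noncanonical WNT ligand and the most abundant of the list at 603.4 TPM, stood at 42245, 55604 and 37191 and then at 72716, 115720 and 74685 (0.93, SE 0.19, adjusted p = 0.028). Summed counts of the list went up in each differentiation, from 77170, 81078 and 58695 at P5 to 96074, 129281 and 86749 at P8.

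In the FGF pathway, 1 of 24 genes was called, *FGF19*, beside 0.259% of all genes. By the 5% rule 5 passed, 2 higher and 3 lower, beside 1.96% and 0.646% of all genes. The median log2 fold change was -0.10. *FGF8*, a ligand of the tail bud, was high in r1 alone, at 884, 40.4 and 33.3 normalized counts at P5 and at 556, 6.16 and 20.2 at P8 (-1.23, adjusted p = 0.10). The receptor *FGFR1* stood at 16428, 17635 and 14890 and then at 20078, 15020 and 15548 (0.03, adjusted p = 0.93), and the groups overlapped. The receptor *FGFR3* stood at 171, 91.9 and 99.1 and then at 372, 332 and 231 (1.38, SE 0.25, adjusted p = 0.021), with no overlap. Of the feedback inhibitors, *SPRY2* stood at 4223, 6360 and 4913 and then at 2583, 2119 and 2759 (-1.07, SE 0.23, adjusted p = 0.031), again with no overlap. *SPRY4* had a log2 fold change of -1.01 (adjusted p = 0.035), and *DUSP6*, a phosphatase induced by FGF signals, of 0.08 (adjusted p = 0.84), with overlapping groups for both.

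In the BMP pathway 1 of 24 genes was called, *BMP7*, beside 0.259% of all genes. By the 5% rule 3 were higher and 0 lower, beside 1.96% and 0.646% of all genes. The median log2 fold change was 0.28. *BMP7* (ENSG00000101144), a secreted ligand, stood at 2118, 4739 and 3063 at P5 and at 6471, 15548 and 11609 at P8, with no overlap. Its log2 ratios of 1.61, 1.71 and 1.92 in r1, r2 and r3 were close to each other, and the gene rose by 1.73 on the log2 scale (SE 0.10, adjusted p = 5.2e-04). With the 6 EPI libraries alone the value was 1.74 with adjusted p = 0.052. *BMP2*, another ligand, stood at 256, 825 and 547 and then at 1118, 9051 and 5165 (3.02, SE 0.42, adjusted p = 0.013), and *BMPER*, a secreted BMP-binding protein, at 4.16, 1.58 and 2.63 and then at 17.3, 1248 and 585 (6.88, SE 1.38, adjusted p = 0.027). For both genes the groups did not overlap, and r1 had the smallest difference. *BMP4* stood at 2256, 5875 and 9273 and then at 2140, 10630 and 10257 (0.34, adjusted p = 0.64). Of the response genes, *ID1* stood at 1684, 958 and 2452 and then at 390, 901 and 5558 (-0.23, adjusted p = 0.85), and *ID3* at 6802, 3393 and 5747 and then at 2598, 3509 and 9493 (-0.30, adjusted p = 0.67), with overlapping groups for both.

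The retinoid pathway had 1 called gene of 20, *DHRS3*, beside 0.259% of all genes. By the 5% rule 5 passed, 2 higher and 3 lower, beside 1.96% and 0.646% of all genes, and the median was -0.10. *DHRS3*, which turns retinal back to retinol, stood at 39.5, 35.6 and 12.3 normalized counts at P5 and at 295, 572 and 348 at P8 (3.78, SE 0.33, adjusted p = 0.0062). The enzymes that break retinoic acid down parted. *CYP26A1* stood at 10.4, 85.6 and 51.8 and then at 2.89, 2.05 and 0.844. Every P8 library had under 3 normalized counts of it and at most 4 counts before normalization, so the fold of *CYP26A1* is not given. *CYP26B1* stood at 23.6, 159 and 66.7 and then at 213, 730 and 1102 (3.13, SE 0.50, adjusted p = 0.016). Neither overlapped between the groups. *ALDH1A1*, an enzyme of retinoic acid synthesis, had 0, 0 and 0.877 at P5 and 0.722, 16.4 and 32.9 at P8, so it was at 1 count or under in every P5 library and its fold is not given. *ALDH1A2* stood at 114, 19.8 and 49.1 and then at 50.5, 26.7 and 17.7 (-0.80, adjusted p = 0.27).

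Of the transcription factors in the retinoid list, *MEIS1*, a *HOX* cofactor, stood at 263, 139 and 420 at P5 and at 65.7, 25.7 and 58.2 at P8 (-2.49, SE 0.33, adjusted p = 0.011), and *NR2F1*, an orphan nuclear receptor, at 235, 486 and 2006 and then at 67.8, 84.2 and 224 (-2.64, SE 0.38, adjusted p = 0.013). Both had no overlap and passed the 5% rule but were not called. *MEIS2* stood at 469, 449 and 959 and then at 66.4, 68.8 and 473 (-2.03, adjusted p = 0.043), with r3 at P8 inside the range of P5.

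Of 20 WNT target and feedback genes, edgeR called 0, with 7 at an unadjusted p under 0.05 and 2 called by DESeq2. Their median log2 fold change was 0.31, and the medians were -0.31, 0.47 and 0.99 in r1, r2 and r3. *AXIN2*, a feedback inhibitor, stood at 21657, 11778 and 14685 and then at 13062, 15996 and 28281 (0.22, adjusted p = 0.73), so it was lower in r1 and higher in r2 and r3. *WIF1*, a secreted WNT antagonist, stood at 38.8, 76.0 and 58.8 and then at 65.7, 1156 and 5350 (4.21, SE 1.33, adjusted p = 0.076). The only gene of the list past the 5% rule was *TRABD2A*, which encodes a protease that acts against WNT proteins. It stood at 3263, 701 and 377 and then at 1417, 340 and 131 (-1.31, SE 0.31, adjusted p = 0.040), lower in each differentiation with overlapping groups. In the Notch pathway edgeR called 0 of 17 genes, with 9 at an unadjusted p under 0.05 and 3 called by DESeq2, 6 were higher with no overlap (35.3%, beside 13.5% of all genes), 2 were lower with none (11.8%, beside 12.6%), and the median was 0.31. The ligand *JAG1* stood at 4192, 5298 and 4955 and then at 11727, 15918 and 7658 (1.21, SE 0.25, adjusted p = 0.030), and the target *HES1* at 563, 421 and 372 and then at 787, 1743 and 1923 (1.63, SE 0.33, adjusted p = 0.028). *HES7*, a gene of the segmentation clock, stood at 144, 65.8 and 95.6 and then at 46.2, 11.3 and 15.2 (-2.28, SE 0.34, adjusted p = 0.014). For these 3 genes the groups did not overlap, with *JAG1* and *HES1* higher and *HES7* lower at P8.

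Of 10 Hedgehog pathway genes edgeR called 0, with 3 at an unadjusted p under 0.05 and 1 called by DESeq2, and the median was 0.13. In this list the ligand genes *SHH* and *DHH* were at or under 3 counts in all 6 libraries. *HHIP*, a decoy receptor, stood at 4255, 2860 and 2700 and then at 5199, 17158 and 9120 (1.62, SE 0.45, adjusted p = 0.056), and the receptor *PTCH1* had a log2 fold change of -0.07 (adjusted p = 0.83). In the GDF and TGF-beta list edgeR called 0 of 24 genes, with 10 at an unadjusted p under 0.05 and 2 called by DESeq2, and the median was 0.32. *GDF11*, a ligand that times the trunk to tail transition, stood at 11858, 14335 and 12318 and then at 14038, 15316 and 12959 (0.12, adjusted p = 0.45), with overlapping groups. *SMAD3*, a transducer of these ligands, stood at 5739, 5830 and 5074 and then at 10124, 10242 and 7662 (0.72, SE 0.09, adjusted p = 0.0091), so its FDR was under 1% and its fold change under 2. *SMAD7*, an inhibitor induced by the pathway, stood at 212, 285 and 244 and then at 317, 776 and 846 (1.27, SE 0.29, adjusted p = 0.036). *SMAD3* and *SMAD7* were higher in every P8 library than in any at P5. *INHBB*, which encodes an activin subunit, stood at 15.3, 222 and 389 and then at 5.05, 2.05 and 16.0 (-4.27, SE 0.87, adjusted p = 0.028), lower in each differentiation with overlapping groups. By the 5% rule *SMAD7* was higher and *INHBB* lower, and 5 of the 24 (20.8%, beside 13.5% of all genes) were higher with no overlap.

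The *LIN28* genes, which block maturation of let-7 and are high in early embryonic cells, were lower at P8 by amounts that differed between differentiations. *LIN28A* stood at 77887, 72939 and 69302 normalized counts at P5 and at 51414, 13287 and 4472 at P8 (-2.54, SE 0.85, adjusted p = 0.086). *LIN28B* stood at 9105, 10635 and 13577 and then at 7086, 4097 and 3627 (-1.23, SE 0.35, adjusted p = 0.060). Both had every P8 library under every P5 library, with r3 lowest at P8. Of the 15 genes of the list edgeR called 0, with 9 at an unadjusted p under 0.05 and 4 called by DESeq2, 7 were lower with no overlap (46.7%, beside 12.6% of all genes), and the median was -0.35. The nuclear receptor *NR6A1* stood at 2154, 780 and 2039 and then at 470, 207 and 129 (-2.66, SE 0.43, adjusted p = 0.017), and *TRIM71*, an RNA-binding ubiquitin ligase, at 13148, 11246 and 12267 and then at 9583, 2890 and 2059 (-1.68, SE 0.41, adjusted p = 0.042). *NR6A1* was called in a fit of all 47 libraries with the pairing, with adjusted p = 0.0026. *HMGA2*, a let-7 target, stood at 26710, 39309 and 35888 and then at 31364, 58612 and 56857 (0.47, adjusted p = 0.036), which is the other direction.

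Neural crest and mesenchyme genes had positive medians in each differentiation, with the largest in r3. Of 30 tested, 1 was called, *SOX9*, beside 0.259% of all genes. By the 5% rule 10 were higher and 0 lower, beside 1.96% and 0.646% of all genes. Higher with no overlap were 5 (16.7%, beside 13.5%). Of the 30, 9 were lower, 0 of them with no overlap (beside 12.6%). The median log2 fold change was 0.61, with medians of 0.29, 0.49 and 1.20 in r1, r2 and r3. The summed normalized counts of the list were 187490, 218726 and 254408 at P5 and 193882, 317527 and 492325 at P8, with *VIM* the most abundant gene at 1234 TPM and no member at 0. *SOX9*, a factor of crest and glial progenitors, stood at 834, 1701 and 2809 at P5 and at 2555, 9906 and 11046 at P8, and rose with a log2 fold change of 2.05 (SE 0.20, adjusted p = 0.0071), although r1 at P8 lay within the range of P5. *FOXD3*, an early crest factor, stood at 86.0, 61.8 and 86.9 and then at 433, 2222 and 2368 (4.07, SE 0.59, adjusted p = 0.013), with no overlap. *ETS1*, *TFAP2B* and *MITF*, all factors of the crest or its derivatives, had log2 fold changes of 2.01, 3.32 and 1.91 and passed the 5% rule with adjusted p = 0.032, adjusted p = 0.035 and adjusted p = 0.025.

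Among further crest factors, *SOX10* stood at 29.1, 47.5 and 139 and then at 19.5, 67.7 and 76.8 (-0.27, adjusted p = 0.68), *TFAP2A* at 110, 960 and 2448 and then at 46.9, 153 and 1613 (-1.47, adjusted p = 0.17), and *TWIST1* at 1017, 1995 and 4361 and then at 317, 2786 and 9359 (0.34, adjusted p = 0.77). The P5 and P8 libraries overlapped for all 3, and r3 was the highest library of its passage for each. *SNAI2*, a zinc finger factor of crest cells, stood at 1146, 1805 and 2270 and then at 1758.5, 4565 and 7500 (1.25, SE 0.28, adjusted p = 0.035), higher in each differentiation with overlapping groups. The matrix gene *COL1A1* stood at 1005, 1049 and 1110 and then at 2739, 4284 and 8368 (2.27, SE 0.52, adjusted p = 0.036), and *FN1*, which encodes fibronectin, at 8436, 14083 and 14215 and then at 15318, 44181 and 48490 (1.46, SE 0.26, adjusted p = 0.019). Both had no overlap. The limb and crest homeobox gene *DLX5* stood at 44.4, 51.5 and 82.5 and then at 67.8, 1711 and 3490 (3.98, adjusted p = 0.043), so it was high in r2 and r3 at P8 and not in r1. The part of crest cells carried over into the epithelial fraction in these differences was not tested.

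Of 16 epithelial genes tested, edgeR called 0, with 6 at an unadjusted p under 0.05 and 3 called by DESeq2. By the 5% rule 3 were higher, 5 were higher with no overlap (31.2%, beside 13.5% of all genes), and the median log2 fold change was 0.74. *GRHL3*, a grainyhead factor of surface epithelium, stood at 117, 96.6 and 91.2 at P5 and at 418, 6966 and 4702 at P8 (4.73, SE 0.95, adjusted p = 0.027). *CDH3*, which encodes P-cadherin and was the most abundant gene of the list at 108.9 TPM, stood at 1297, 6094 and 3045 and then at 6589, 13852 and 10366 (1.72, SE 0.29, adjusted p = 0.019). *OCLN*, which encodes the tight junction protein occludin, stood at 327, 298 and 209 and then at 535, 978 and 488 (1.19, SE 0.23, adjusted p = 0.025). The groups did not overlap for these 3 genes. *TJP1*, the scaffold of tight junctions, stood at 7986, 8919 and 8872 and then at 8002, 8830 and 9025 (-0.02, SE 0.06, adjusted p = 0.87), and *GRHL2* and *CLDN7* were at or under 3 counts in all 6 libraries.

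Markers of endoderm and surface ectoderm were mostly absent. Of 12 genes, 3 passed the count filter, and 7 were at or under 3 counts in all 6 EPI libraries, among them *SOX17*, *FOXA2*, *KRT14* and *GATA3*. *TFAP2C*, an AP-2 factor of surface ectoderm and neural plate border, was the most abundant at 47.0 TPM and was called. It stood at 1365, 1708 and 1081 at P5 and at 3324, 7035 and 4600 at P8, with no overlap, and rose with a log2 fold change of 1.78 (SE 0.19, adjusted p = 0.0071). The summed counts of the list were 1621, 2129 and 1307 at P5 and 3824, 7745 and 5124 at P8, and their part in the other results was not tested.

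Schwann cell and melanocyte genes were higher at P8 in 7 of 7 tested, with a median of 1.18, and edgeR called 0, with 4 at an unadjusted p under 0.05 and 2 called by DESeq2. The differences ran from 0.02 upward, the median of r1 was 0.24, and 1 of the 7 had no overlap (14.3%, beside 13.5% of all genes). *TYRP1*, the called gene of melanin synthesis described above, is not a member of this list. Their summed counts were 4417, 3410 and 3607 at P5 and 5424, 7010 and 8797 at P8, with *GAP43* the most abundant at 60.5 TPM. *DCT*, a melanin enzyme, stood at 7.63, 1.58 and 3.51 and then at 18.0, 34.9 and 65.0 (2.99, SE 0.66, adjusted p = 0.034). Its counts were low at both passages, and every P8 library was above every P5 library. In the mesoderm and lateral plate list edgeR called 0 of 14 genes, with 8 at an unadjusted p under 0.05 and 1 called by DESeq2, the median was -0.13, and *PAX1*, *GATA4* and *WT1* were at or under 3 counts throughout. The summed counts of that list were 850, 401 and 943 at P5 and 321, 924 and 843 at P8, with *PAX2* the most abundant at 3.00 TPM. *HAND2*, a lateral plate factor, stood at 2.08, 2.38 and 4.39 and then at 8.66, 183 and 148 (4.86, SE 0.84, adjusted p = 0.019). *PAX2*, an intermediate mesoderm and neural factor, stood at 518, 147 and 425 and then at 38.2, 44.1 and 48.9 (-2.81, SE 0.50, adjusted p = 0.020). *HAND2* was higher and *PAX2* lower in every P8 library than in any at P5. The part of such cells in the changes of the fraction was not tested.

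All 6 pluripotency genes tested had a log2 fold change below 0, with a median of -1.86. edgeR called 0, with 3 at an unadjusted p under 0.05 and 1 called by DESeq2. By the 5% rule 1 was lower, and 3 were lower with no overlap (50%, beside 12.6% of all genes). The most abundant was *DPPA4* at 12.3 TPM. *NANOG* stood at 6.24, 13.5 and 3.51 normalized counts and then at 6.49, 1.03 and 0, so it was not lower in r1. *POU5F1*, the pluripotency factor OCT4, stood at 43.7, 31.7 and 30.7 normalized counts at P5 and at 8.66, 5.13 and 1.69 at P8 (-2.85, SE 0.60, adjusted p = 0.031). *DPPA4* stood at 858, 406 and 1136 and then at 261, 53.4 and 340 (-2.06, SE 0.35, adjusted p = 0.019). Neither overlapped between the groups.

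Among neural progenitor genes 1 of 22 was called, *POU3F2*, which fell, beside 0.259% of all genes called. Lower with no overlap were 2 (9.09%, beside 12.6% of all genes) and higher 0 (beside 13.5%). The median log2 fold change was -0.49. *SOX2*, the most abundant at 198.4 TPM, stood at 14797, 11795 and 10162 at P5 and at 17336, 8828 and 6378 at P8 (-0.35, SE 0.32, adjusted p = 0.48), higher in r1 and lower in r2 and r3. *PAX6*, a factor of the closed neural tube, stood at 29.8, 0.792 and 0.877 and then at 5.05, 0 and 0.844, and *SOX1* at 130, 8.71 and 4.39 and then at 71.4, 10.3 and 4.22 (-0.35, adjusted p = 0.71). Both were low in r2 and r3 at either passage. *PAX3*, a dorsal factor, stood at 7324, 4686 and 4195 and then at 7079, 11153 and 9847 (0.80, SE 0.26, adjusted p = 0.077).

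Of 16 neuronal commitment genes edgeR called 0, with 4 at an unadjusted p under 0.05 and 0 called by DESeq2. The median was -0.66, and *LHX3* was at 0 and *ATOH1* at or under 3 counts in all 6 libraries. Of the 16, 12 were lower, and 4 were lower with no overlap (25%, beside 12.6% of all genes). Higher with no overlap was 1 (6.25%, beside 13.5%). The summed counts of the list were 16668, 10853 and 9862 at P5 and 9374, 8422 and 15995 at P8, with *TUBB3* the most abundant at 200.8 TPM. The proneural factor *NEUROG2* stood at 1728, 164 and 246 and then at 421, 35.9 and 161 (-1.67, SE 0.75, adjusted p = 0.17), and *DLL3*, a Notch ligand of new neurons, at 399, 304 and 245 and then at 141, 82.1 and 205 (-1.25, adjusted p = 0.084). Among markers of neurons, *ELAVL3* stood at 62.4, 67.3 and 24.6 and then at 114, 72.9 and 143 (1.12, SE 0.78, adjusted p = 0.35). It was higher in each differentiation with no overlap, while *DCX* and *STMN2* were uneven at P8. *DCX*, a microtubule protein of migrating neurons, stood at 108, 227 and 77.2 and then at 96.7, 124 and 2101 (1.32, SE 1.26, adjusted p = 0.50), and *STMN2*, a protein of growing axons, at 78.4, 345 and 77.2 and then at 33.2, 3019 and 1650 (2.72, SE 1.14, adjusted p = 0.15). At P8 *DCX* was high in r3 alone and *STMN2* in r2 and r3, and the part of neurons in those libraries was not tested.

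Proliferation genes were lower in 22 of 25, 10 of them with no overlap (40%, beside 12.6% of all genes), and 2 were higher with no overlap (8%, beside 13.5%). The median log2 fold change was -0.43. edgeR called 0 of them, with 23 at an unadjusted p under 0.05 and 0 called by DESeq2. The medians were -0.06, -0.54 and -0.73 in r1, r2 and r3. *MCM2*, a subunit of the replicative helicase, stood at 16679, 16156 and 15984 at P5 and at 13559, 8194 and 7710 at P8 (-0.79, SE 0.16, adjusted p = 0.025), and *MKI67*, a marker of cycling cells, at 25281, 26869 and 29412 and then at 29239, 16337 and 16138 (-0.48, SE 0.18, adjusted p = 0.11). The difference of *MCM2* was smallest in r1, and *MKI67* was higher at P8 there. *CCND1*, a D cyclin, went the other way, from 13696, 12345 and 11770 to 18974, 23708 and 20574 (0.72, SE 0.11, adjusted p = 0.015). CDK inhibitors and p53 targets were higher in 14 of 15, 10 of them with no overlap (66.7%, beside 13.5% of all genes), while edgeR called 0, with 11 at an unadjusted p under 0.05 and 2 called by DESeq2. Their median of 0.39 was similar in r1, r2 and r3, at 0.45, 0.55 and 0.43. *CDKN1A*, which encodes p21, stood at 1420, 1166 and 1186 and then at 2428, 2879 and 2418 (1.02, SE 0.17, adjusted p = 0.019), and *CDKN1C*, which encodes p57, at 1025, 711 and 840 and then at 1264, 2112 and 2599 (1.15, SE 0.26, adjusted p = 0.035). The p53 target *ZMAT3* stood at 1571, 1448 and 1361 and then at 2614, 2249 and 2643 (0.75, SE 0.12, adjusted p = 0.017). These 3 genes were higher in every P8 library than in any P5 library.

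The stress response list had a median log2 fold change of -0.06 over 17 genes, the hypoxia and glycolysis list 0.05 over 17 and the imprinted growth list 0.22 over 11. edgeR called 0 genes in each, against 10, 9 and 4 at an unadjusted p under 0.05 and 3, 3 and 1 called by DESeq2. Higher with no overlap were 5 stress genes (29.4%), 2 hypoxia genes (11.8%) and 2 imprinted genes (18.2%), and lower were 2 (11.8%), 4 (23.5%) and 2 (18.2%), beside 13.5% and 12.6% of all genes. The stress list holds *JUN*, described above, and *ATF3*, a stress factor, which stood at 429, 229 and 145 and then at 564, 1436 and 832 (1.82, SE 0.51, adjusted p = 0.057), both with no overlap. *ADM*, a peptide hormone induced by hypoxia, stood at 13.2, 84.8 and 80.7 and then at 139, 1744 and 212 (3.04, SE 0.73, adjusted p = 0.040). *MEST*, an imprinted gene, stood at 9094, 11388 and 12102 and then at 14857, 22470 and 20175 (0.79, SE 0.10, adjusted p = 0.0091), and the imprinted *NNAT* at 4514, 3301 and 5523 and then at 2557, 1320 and 3207 (-0.997, SE 0.14, adjusted p = 0.013). The groups did not overlap for *ADM*, *MEST* and *NNAT*, with *ADM* highest in r2.

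**Figure D3:**
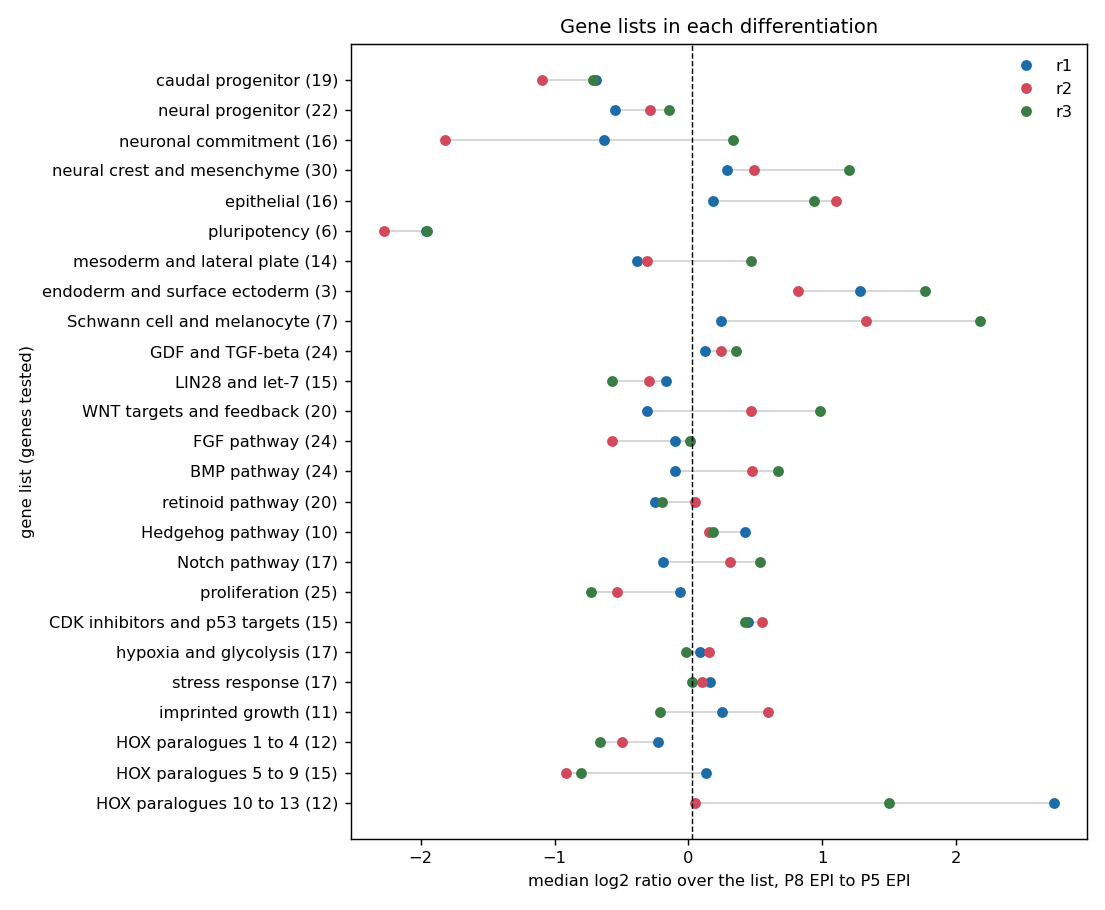
Median log2 ratio of P8 EPI to P5 EPI over the tested genes of each list, with a point for each differentiation and the number of genes tested in brackets, and a dashed line at the median over all genes. Pluripotency genes and caudal progenitor genes lie to the left in r1, r2 and r3, *HOX* paralogues 10 to 13 lie to the right with r2 close to the line, and WNT and neuronal lists have points on both sides.

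The mesenchymal fraction gave its own passage differences, which are set beside those of the epithelial fraction. All 49 genes called in EPI had the same direction in all 3 pairs of P8 MES and P5 MES libraries. Over all genes tested, 75.7% had the same sign of mean ratio in both fractions, which is a looser measure. The calls come from a fit whose spread is estimated from both fractions, so the agreement of the 49 is in part built in. The median log2 ratio of the genes called higher was 2.04 in EPI and 1.77 in MES, and of those called lower -2.58 and -2.03, and 33 of the 49 had the larger ratio in EPI, where they were called. Opposite directions in all pairs were found for 345 genes (1.83%). *SOX9* had log2 ratios of 1.61, 2.54 and 1.97 in EPI and of 0.33, 0.56 and 0.93 in MES, and the difference had adjusted p = 0.82. The *HOX* index was higher at P8 by 1.06, 1.04 and 2.09 in MES.

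The test of the difference itself called 0 genes (0%) in edgeR, with 1153 at an unadjusted p under 0.05 and a smallest adjusted p of 0.815, and DESeq2 called 1, *TNC*. *TNC*, which encodes the matrix protein tenascin C, was singled out after its values were seen. It stood at 7282, 10090 and 7054 in P5 EPI and at 19240, 32139 and 15326 in P8 EPI, and its log2 ratios were 1.40, 1.67 and 1.12 in EPI and 3.14, 2.57 and 3.69 in MES. The fitted difference was -1.71 with adjusted p = 0.82 in edgeR, so *TNC* was higher at P8 in both fractions and by the smaller ratio in EPI. In whole cultures, which were not split, the mean log2 ratios of P8 to P5 were 7.19 for *CXCL14*, 5.37 for *EMP1*, 1.77 for *BMP7*, 1.80 for *SOX9* and -3.63 for *GABRA4*, beside 7.89, 4.60, 1.75, 2.04 and -3.92 in EPI.

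**Figure D4:**
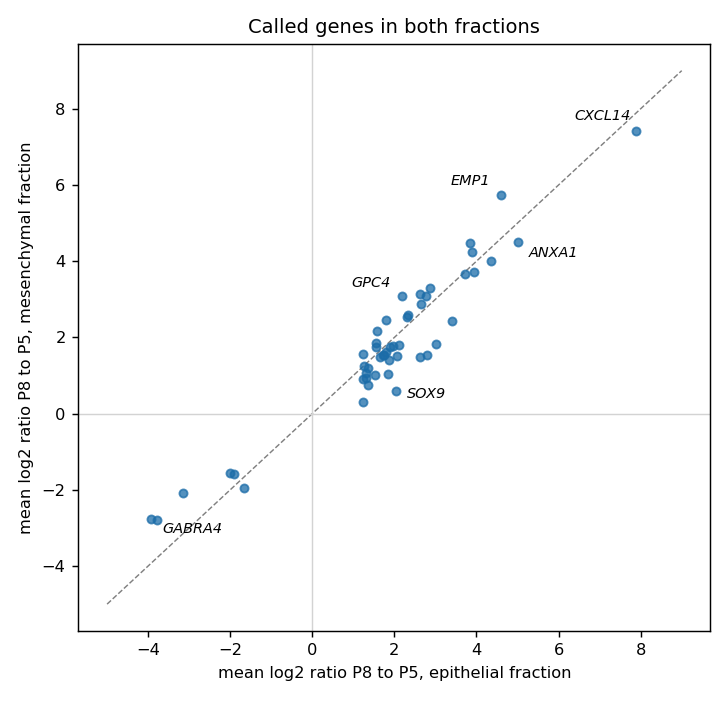
Mean log2 ratio of P8 to P5 in EPI (x axis) and in MES (y axis) for the 49 called genes, with a point for each gene, a dashed line where both ratios are equal, and some genes labelled. All points lie in the lower left or the upper right, and *SOX9* lies below the dashed line.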

How the data were processed

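Gene levels of 47 libraries of H9 cells were measured by polyA RNA-seq, and 6 of them, 3 of P5 EPI and 3 of P8 EPI, are compared. The authors aligned trimmed reads to GRCh38 and deposited expected counts from RSEM, which divide a read between the genes it could come from. The deposited TPM values are the same estimates corrected for effective length, with an equal total in each library. The submitters' processing notes name cutadapt 1.16, STAR 2.5.2b and RSEM 1.3.0. Which annotation release, strand setting and filters on reads were used is not given in the sources used here, so counts of overlapping and antisense genes are uncertain.

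Of 58051 gene identifiers, 57447 were matched to a symbol of GENCODE 29, whose coordinates are on GRCh38. For *HOXC5*, which has a pair of identifiers, the first was used. The counts and sums over *HOX* genes include 1 gene that is not reported by itself.

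Expected counts were rounded to whole numbers and divided by TMM size factors to give normalized counts. Genes kept by filterByExpr were tested with the quasi-likelihood F-test of edgeR 4.0.16 (glmQLFit, glmQLFTest) and limma 3.58.1 in R 4.3.3, with Benjamini-Hochberg adjustment over all 18886 genes. The 12 fraction libraries shared a fit with the differentiation as a block, with 6 residual degrees of freedom and a biological coefficient of variation of 22.8%. The SE of a log2 fold change was derived from that change and the F statistic of this fit. The contrasts were P8 EPI minus P5 EPI, and its difference from P8 MES minus P5 MES. The limits for a call were those of the study, namely FDR below 1%, 2-fold or more, and an average of 100 or more. The steps were tested on simulated counts, drawn independently for each library. These had no differentiation effect and no shared change of both fractions, so p-values under that dependence were not checked. Log2 ratios within a differentiation used 1 added to both counts.

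The pairing comes from the design of the series, in which both fractions at P5 and P8 were collected in each of 3 experiments. It was checked on 13262 genes, where deviations from the group mean of P5 EPI and P8 EPI of the same number correlated at 0.451 (r1), 0.195 (r2) and 0.44 (r3), while those of different numbers gave between -0.406 and 0.111, which the centring in part fixes. No pair of libraries of a group differed by as little as counting noise, the smallest ratio of their median squared difference to that noise being 6.42.

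Named are, for either direction, the 10 called genes of largest log2 fold change that moved the same way in all 3 differentiations and have a symbol that is not a clone name (5 qualified among the lower ones), *HOX* genes and leading list members by role, and cell type markers. *TNC* and the promoter motifs were chosen after values were seen. Members and lists were chosen with earlier results of these data known. Alternatives were no block, the 6 EPI libraries alone, all 47 libraries, DESeq2 1.42.0 with the block, DESeq2 size factors in edgeR, no filter on counts, a filter of 10 or more counts in every library, each differentiation left out, an FDR under 5%, no mean or fold minimum, and other weights for the *HOX* index. Reads had no molecular identifiers, so statements on depth cover counting error only.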

Additional observations from a re-analysis of the deposited data

Results flagged for a closer look

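A pair of named genes had all 3 differentiations moving one way in the epithelial fraction and the opposite way in the mesenchymal fraction. *PRRX1*, a mesenchymal homeobox gene, had log2 ratios of P8 to P5 of 0.21, 0.20 and 0.72 in EPI and of -0.32, -0.37 and -0.03 in MES, and the mean difference of EPI minus MES was 0.61. *CDH2*, which encodes N-cadherin, had ratios of -0.05, -0.21 and -0.21 in EPI and of 0.64, 0.62 and 0.61 in MES, a mean difference of -0.78. In edgeR's test of the difference neither passed after adjustment, with adjusted p = 0.82 for *PRRX1* and adjusted p = 0.82 for *CDH2*. Over all genes tested, 345 (1.83%) had opposite directions in every pair.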

How the results depend on the processing

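The count of called genes, 49 as reported, became 0 with no replicate block and 0 with the 6 EPI libraries alone and the block, each with 4285 genes at an unadjusted p under 0.05 in edgeR, on different genes tested (18886 and 18065). It became 6 with all 47 libraries, 606 with DESeq2, 165 with no count filter and 493 at an FDR under 5%. It stayed within 1.5 times with DESeq2 size factors (46), at least 10 counts in every library (42), no mean minimum (56) and no fold minimum (65). With a differentiation left out it ran from 0 to 364, the 364 without r1. The cause was not tested. The count for the difference between EPI and MES was 0 in edgeR under every alternative run, from 0 to 0 with a differentiation left out, with 1153 at an unadjusted p under 0.05 as reported, and 1 with DESeq2. The difference in *HOX* index of 1.083 became 0.764 with TPM and 0.380 with log2 weights, and ran from 0.811 to 1.248 with a differentiation left out. It was positive each time.

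Of the 18 named genes that were called, 18 kept direction and call with DESeq2, with DESeq2 size factors and with no count filter, 16 without r1 and 2 with all 47 libraries, and 0 passed with no block, with the 6 EPI libraries alone, without r2 or without r3, always with the same direction. Reversals were found for genes that were not called. *ID1* became 0.41 with no replicate block. With a differentiation left out, the log2 fold changes of these genes crossed 0, and the differentiation whose omission did so is in brackets: *FGFR2* from -0.24 to 0.19 (r1), *TJP1* from -0.04 to 0.00 (r2), *SOX10* from -0.75 to 0.05 (r3), *TWIST1* from -0.29 to 0.78 (r3), *IRX3* from -1.03 to 2.30 (r3), *DCX* from -0.48 to 2.48 (r3), *MSGN1* from -0.06 to 1.67 (r2 and r3), *FOXC2* from -0.97 to 0.96 (r1), *TBXT* from -0.14 to 1.3 (r2), *ID1* from -1.11 to 0.57 (r1), *ID3* from -0.72 to 0.31 (r1), *FGFR1* from -0.13 to 0.17 (r1), *PTCH1* from -0.19 to 0.05 (r1), *AXIN2* from -0.14 to 0.65 (r3) and *HOXA10* from -0.26 to 0.29 (r2). The cause was not tested. At 44680263 to 61252964 counts per library, depth limits what can be said of genes near the floor of 3 counts, such as *PAX6* in r2 and r3.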
